A study of Homo sapiens with 6 samples.

Results

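The DNA damage checkpoint and repair genes described here are recombination, mismatch, excision, end-joining and checkpoint genes from a fixed list of 57 symbols. The list was chosen with earlier results of these data known. A gene entered if the platform annotation paired a row of the deposited value table with its symbol, and where a gene had several rows the row with the highest mean over all arrays was used. By this rule 43 of the 57 were measured, out of 14779 named genes in all, and the other 14 had no such row and were not analysed here. The 14 are ATM, RNF8, RNF168, BRCA1, BRCA2, RBBP8, BLM, WRN, FANCD2, FANCI, ERCC1, XPA, XPC and LIG4. They include all 3 listed nucleotide excision genes and 2 of 5 genes of the BRCA complexes, so those groups are missing or partly covered. The apical kinases, break-site genes, end resection, RecQ helicases, crosslink cycle and end joining are also only partly covered.

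The cells were BE(2)-C, an established line from a human neuroblastoma, and the RNA of each of 6 samples was read on its own Affymetrix whole-transcript array. The NCT-503 group was 3 samples treated for 2 days with 10 µM NCT-503, a small-molecule inhibitor of PHGDH, the enzyme that opens serine synthesis from glucose. The DMSO group was 3 samples given the vehicle for the same time. All 6 samples are of the same unmodified line grown in serum-containing medium, so the results cover 1 cell line, 1 dose and 1 time. The question is which checkpoint and repair transcripts differ after the inhibitor, and no DNA damage, repair activity or cell cycle phase was measured.

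Cells answer DNA damage in layers. Sensor proteins recognise broken or single-stranded DNA, the kinases ATR and its relatives relay the signal to CHEK1 and CHEK2, and mediators gather at the lesion. Double-strand breaks are then resected and copied from the sister chromatid by homologous recombination or rejoined by end joining, crosslinks are unhooked by nucleases, and altered bases or mismatches are cut out by excision and mismatch repair. Many of these genes are transcribed mainly in S phase, when replication makes the sister chromatid available.

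Levels are the deposited values, taken as log2 expression, and a change is the difference NCT-503 minus DMSO on that scale with limma's standard error (SE, 3 arrays per group). A gene is called when limma's p-value, adjusted by the Benjamini-Hochberg method over all 14779 genes, is under 0.05. Array medians over the genes tested were 4.97 to 4.99 in the NCT-503 arrays and 5.02 to 5.03 in the DMSO arrays. Arrays of the same group correlated at 0.990 to 0.993 over the whole table and arrays of different groups at 0.971 to 0.972 (Pearson), and no array stood apart from its group. Of 9 measured markers of the line, 4 fell, 3 rose and 2 did not pass. The secretory granule proteins CHGA (8.45 ± 0.13 with NCT-503 and 9.69 ± 0.03 with DMSO, mean ± SD, n = 3 each) and CHGB (9.02 ± 0.07 and 10.15 ± 0.07) fell by 1.23 and by 1.13, and the lineage factors HAND2 (-0.30) and ISL1 (-0.29) fell less. The lineage factors PHOX2A (0.75) and GATA3 (0.37) and the noradrenaline enzyme DBH (0.37) rose, and GATA2 (-0.05) and TH (-0.16) did not pass. The 9 summed to 12.20 to 12.30 with NCT-503 and 12.46 to 12.51 with DMSO. Of 3 measured leukocyte markers, CD14 (3.34 and 3.43) and LYZ (2.85 and 2.76) did not pass, whereas CD68, which encodes a lysosomal protein, rose by 2.25. The summed level of these 3 was 8.43 to 8.62 with NCT-503 and 6.41 to 6.69 with DMSO on the log2 scale. Of 3 measured fibroblast markers DCN (-0.47) and THY1 (-0.25) fell, and the 3 summed to 7.70 to 7.84 with NCT-503 and 8.01 to 8.09 with DMSO. None of 4 measured epithelial markers passed, and they summed to 6.94 to 7.04 with NCT-503 and 6.65 to 6.79 with DMSO. Of 4 measured Schwann and glial markers MBP rose by 0.64 (adjusted p = 0.00367) and the others did not pass, among them SOX10 (0.14), and the 4 summed to 6.22 to 6.39 with NCT-503 and 6.11 to 6.30 with DMSO. The part of these changes in the results below was not tested.

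Checkpoint and repair transcripts were more often lower than higher after NCT-503. Of the 43 measured members, 16 fell (37.2%, against 17.1% of all genes tested) and 6 rose (16.4% of all genes tested did), and 21 did not pass. Because the members were chosen with earlier results of these data known, these shares describe the list and cannot serve as a test of it. After centring each array on its 75th percentile, 14 members fell and 7 rose, and over all genes tested 2189 fell and 3345 rose, against 2534 and 2419 as deposited. The falls reached 3.60-fold for the recombination gene XRCC2, and BRIP1, UHRF1 and UNG also fell more than 2-fold. These 4 are 4 of 43 members, and 3.2% of all genes tested fell that far. The rises were smaller, from 1.22-fold for RAD18 to 1.67-fold for XRCC1, the scaffold of single-strand break repair. The median change was -0.18 over the members and 0.06 over all genes tested. In bulk RNA, fewer cells in S phase and less repair RNA per cell cannot be told apart, and 21 of 24 S phase genes fell in the same samples. All 22 called members had groups that did not overlap. In all, 19 members had every NCT-503 array below every DMSO array (22.4% of all genes tested did) and 9 had every NCT-503 array above (25.4% did).

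Calls are more frequent among genes of higher level, and 41 of the 43 members lay above the median level of the genes tested. In a fit of the 7389 genes above that median, 18 of these 41 were called lower (43.9%, against 32.2% of the genes in that fit) and 7 were called higher (17.1%, against 29.1%). The count of 6 rises became 3 without NCT-503 c or without DMSO c. The count of falls was 12 to 15 when any 1 array was left out, and the median change was -0.12 without DMSO c.

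**Figure D1:**
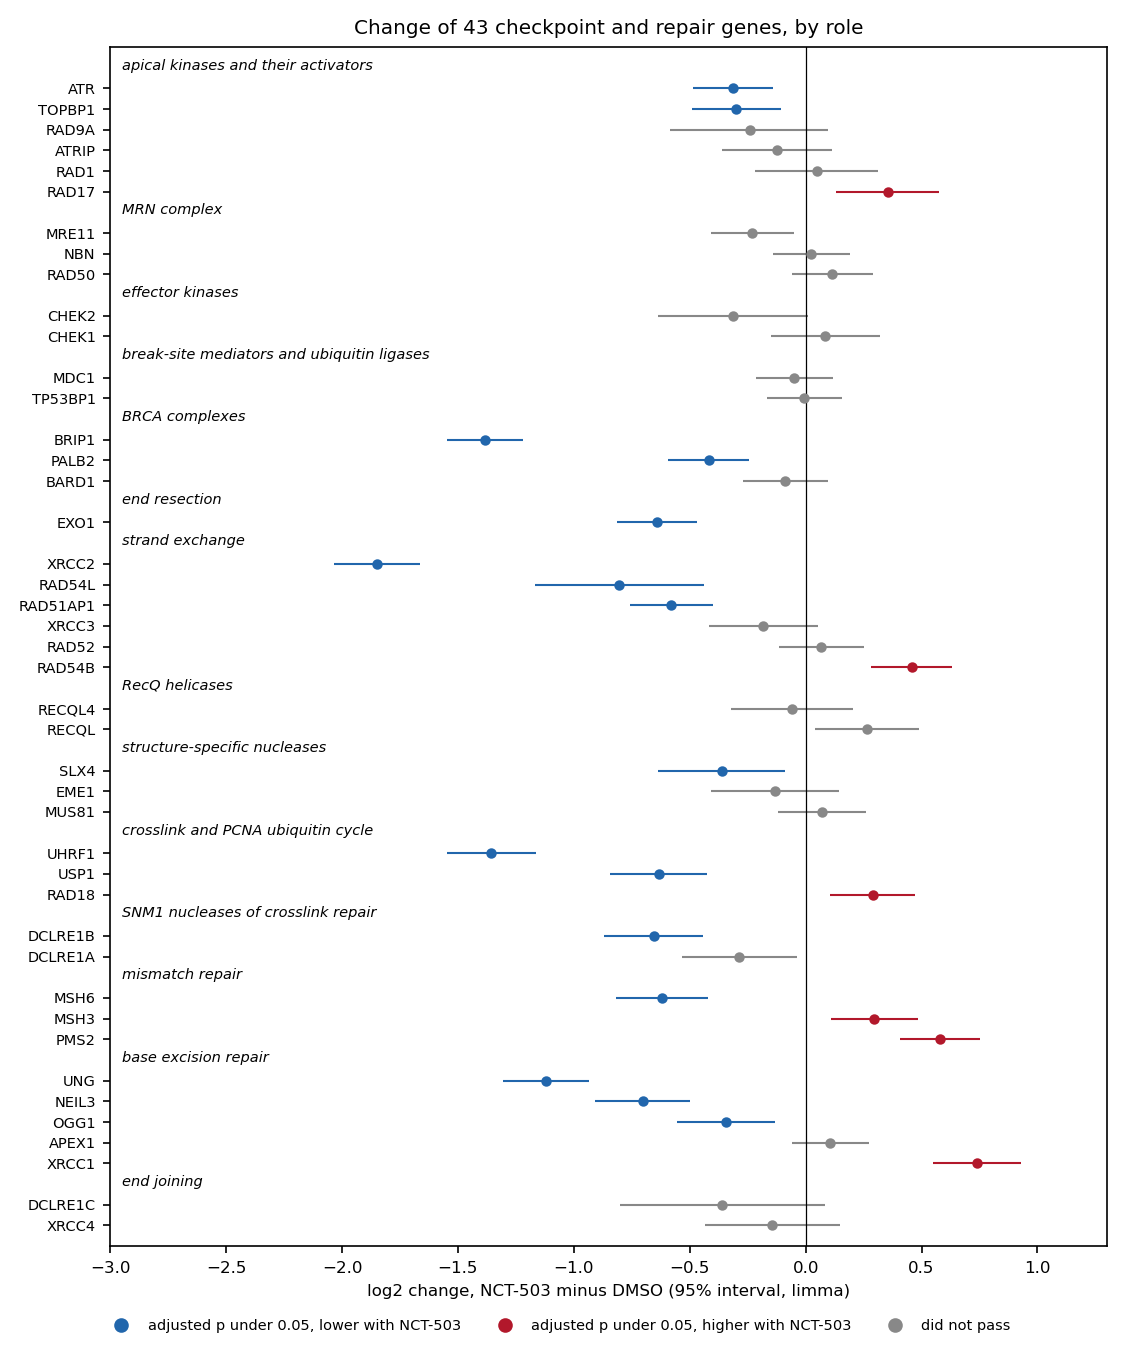
Log2 change, NCT-503 minus DMSO, of each of the 43 measured members, grouped by role down the page; points are limma's estimates and bars their 95% intervals, blue for genes called lower, red for genes called higher and grey for the others. XRCC2 (-1.85), BRIP1 (-1.38), UHRF1 (-1.36) and UNG (-1.12) lie farthest to the left, and XRCC1 (0.74) lies farthest to the right.

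The promoters of the members with the largest changes are shown because E2F, NF-Y and the factors of the cell cycle homology region are known to bind promoters of replication and division genes. Sequences are RefSeq promoter windows of GRCh38.p14, 250 bases before to 50 bases after the gene start, printed in the direction of transcription. They are from chr7:152676092-152676391 (minus strand) for XRCC2, chr17:61863479-61863778 (minus strand) for BRIP1, chr19:4909251-4909550 (plus strand) for UHRF1, chr12:109097347-109097646 (plus strand) for UNG and chr19:43575478-43575777 (minus strand) for XRCC1. Capitals mark E2F-type sites (TTTCCCGC, TTTCGCGC, TTTGCCGC or TTTGGCGC), CCAAT boxes (CCAAT) and CHR-like sites (TTTGAA or TTTAAA, for the cell cycle homology region) on either strand, so that GCGGGAAA, ATTGG and TTCAAA are sites on the other strand.
XRCC2: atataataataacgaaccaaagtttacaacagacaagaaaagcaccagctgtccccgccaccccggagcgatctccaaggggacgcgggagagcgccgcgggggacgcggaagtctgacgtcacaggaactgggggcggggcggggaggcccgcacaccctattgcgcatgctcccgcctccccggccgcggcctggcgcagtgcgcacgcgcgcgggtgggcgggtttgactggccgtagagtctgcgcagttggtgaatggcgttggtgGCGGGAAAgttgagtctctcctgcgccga
BRIP1: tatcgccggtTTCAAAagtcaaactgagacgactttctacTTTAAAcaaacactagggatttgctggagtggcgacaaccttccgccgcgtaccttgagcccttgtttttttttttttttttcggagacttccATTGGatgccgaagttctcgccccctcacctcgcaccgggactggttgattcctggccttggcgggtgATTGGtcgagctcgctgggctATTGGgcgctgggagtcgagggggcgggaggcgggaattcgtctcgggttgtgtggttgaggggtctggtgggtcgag
UHRF1: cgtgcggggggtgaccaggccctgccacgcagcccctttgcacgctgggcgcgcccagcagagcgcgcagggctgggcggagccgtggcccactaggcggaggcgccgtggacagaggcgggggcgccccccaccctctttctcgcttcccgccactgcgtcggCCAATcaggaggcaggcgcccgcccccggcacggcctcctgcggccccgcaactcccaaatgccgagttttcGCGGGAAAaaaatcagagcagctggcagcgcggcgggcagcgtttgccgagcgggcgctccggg
UNG: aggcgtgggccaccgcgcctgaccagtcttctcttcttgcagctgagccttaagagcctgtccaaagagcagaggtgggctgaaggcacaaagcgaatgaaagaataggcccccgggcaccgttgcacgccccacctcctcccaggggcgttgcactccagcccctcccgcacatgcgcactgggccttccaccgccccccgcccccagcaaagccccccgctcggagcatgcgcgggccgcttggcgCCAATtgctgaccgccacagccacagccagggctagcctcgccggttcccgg
XRCC1: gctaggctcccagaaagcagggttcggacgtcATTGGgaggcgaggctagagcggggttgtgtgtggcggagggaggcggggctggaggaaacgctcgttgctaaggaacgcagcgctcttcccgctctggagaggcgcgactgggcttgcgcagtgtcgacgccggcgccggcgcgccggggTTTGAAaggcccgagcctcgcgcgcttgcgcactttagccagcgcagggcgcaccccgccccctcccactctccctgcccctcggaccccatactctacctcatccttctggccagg

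Counted with the start base as 0, the E2F-type site began at base 21 in the XRCC2 window and at base -14 in the UHRF1 window. The UHRF1 window also held a CCAAT box at -86. The BRIP1 window held no E2F-type site and 3 CCAAT boxes, at -117, -49 and -28, and 2 CHR-like sites, at -240 and -210. UNG had a CCAAT box at -2, and XRCC1 had a CCAAT box at -218, a CHR-like site at -67 and no E2F-type site. Only the exact strings given above were counted, and near matches were not.

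Of the 43 members, 40 had a promoter in the table, and 7 of these 40 (17.5%) held an E2F-type site, against 3.3% of all 27305 promoters and 4.5% of the promoters of genes tested. They were 5 of the 16 members that fell (XRCC2, UHRF1, EXO1, MSH6 and TOPBP1), 2 of the 5 with a promoter that rose (PMS2 and MSH3) and 0 of the 19 that did not pass. Of the promoters of all genes called lower 7.0% held an E2F-type site, and of those of all genes called higher 3.5%. CCAAT boxes were held by 10 of the 16 members that fell, 2 of the 5 that rose and 13 of the 19 that did not pass. They were held by 35.7% of all promoters and 36.0% of the promoters of genes tested. The CHR-like site was held by 4 of the 40 (10.0%), by 24.3% of all promoters and by 18.7% of the promoters of genes tested. No motif contains another, and a match is a string of letters in this window, not a bound site.

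**Figure D2:**
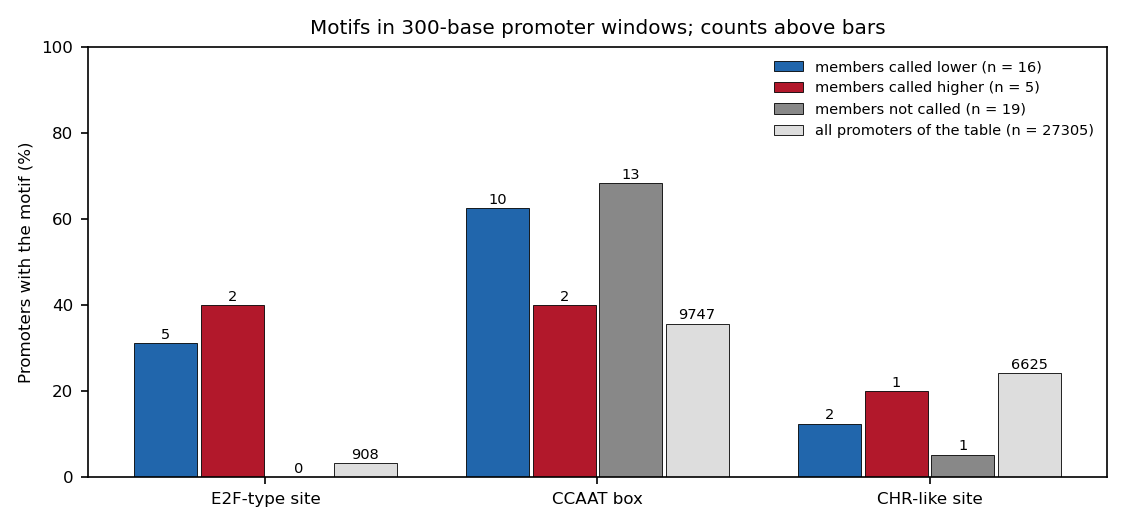
Share of promoter windows, in percent, that hold each of the 3 motifs, for members called lower (16 promoters), members called higher (5), members that did not pass (19) and all 27305 promoters of the table; counts of promoters stand above the bars. E2F-type sites were in 5 of 16, 2 of 5, 0 of 19 and 908 of 27305.

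Homologous recombination copies lost sequence from the sister chromatid, and its strand exchange genes held both the largest fall and a clear rise. XRCC2, which acts early in strand exchange, was at 6.78, 6.64 and 6.65 in NCT-503 a, b and c, against 8.47, 8.59 and 8.56 in DMSO a, b and c. The groups lay far apart, with a change of -1.85 ± 0.08 (SE, adjusted p = 1.64e-05), and XRCC2 ranked 83rd from the lowest change among the 14779 genes. XRCC3, a related gene whose protein works in another complex, had a change of -0.18 (95% interval -0.42 to 0.05) and did not pass. XRCC3 was at 4.68, 4.78 and 4.59 with NCT-503, against 4.76, 4.81 and 5.03 with DMSO. That is below the median level of the genes tested (percentile 46.4), so its fold may be understated. Within each array the XRCC2 minus XRCC3 difference changed by -1.67 ± 0.10 (SE) with NCT-503.

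RAD54L and RAD54B encode related motor proteins that move along DNA and help strand invasion. RAD54L fell by 0.80 ± 0.16 (adjusted p = 0.00665), with 5.24, 5.16 and 4.73 in the NCT-503 arrays against 6.04, 5.80 and 5.69 in the DMSO arrays. Its spread was the widest among the members that fell, and NCT-503 c lay below the other two. RAD54B rose by 0.46 ± 0.08 (adjusted p = 0.00333), with 8.16, 8.21 and 8.28 with NCT-503 against 7.79, 7.70 and 7.79 with DMSO. The RAD54L minus RAD54B difference changed by -1.26 ± 0.21 (SE) with NCT-503. RAD51AP1, an accessory factor of strand exchange, fell by 0.58 ± 0.08 (adjusted p = 0.00129), and RAD52, which anneals single strands, had a change of 0.07 (-0.12 to 0.25). For the 3 related pairs compared, XRCC2 with XRCC3, RAD54L with RAD54B and MSH6 with MSH3 below, the exact two-sided permutation p over the 20 splits of the arrays was 0.10 each, the smallest this design allows. These pairs were chosen after their values were seen, so these p-values cannot serve as a test of the differences.

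**Figure D3:**
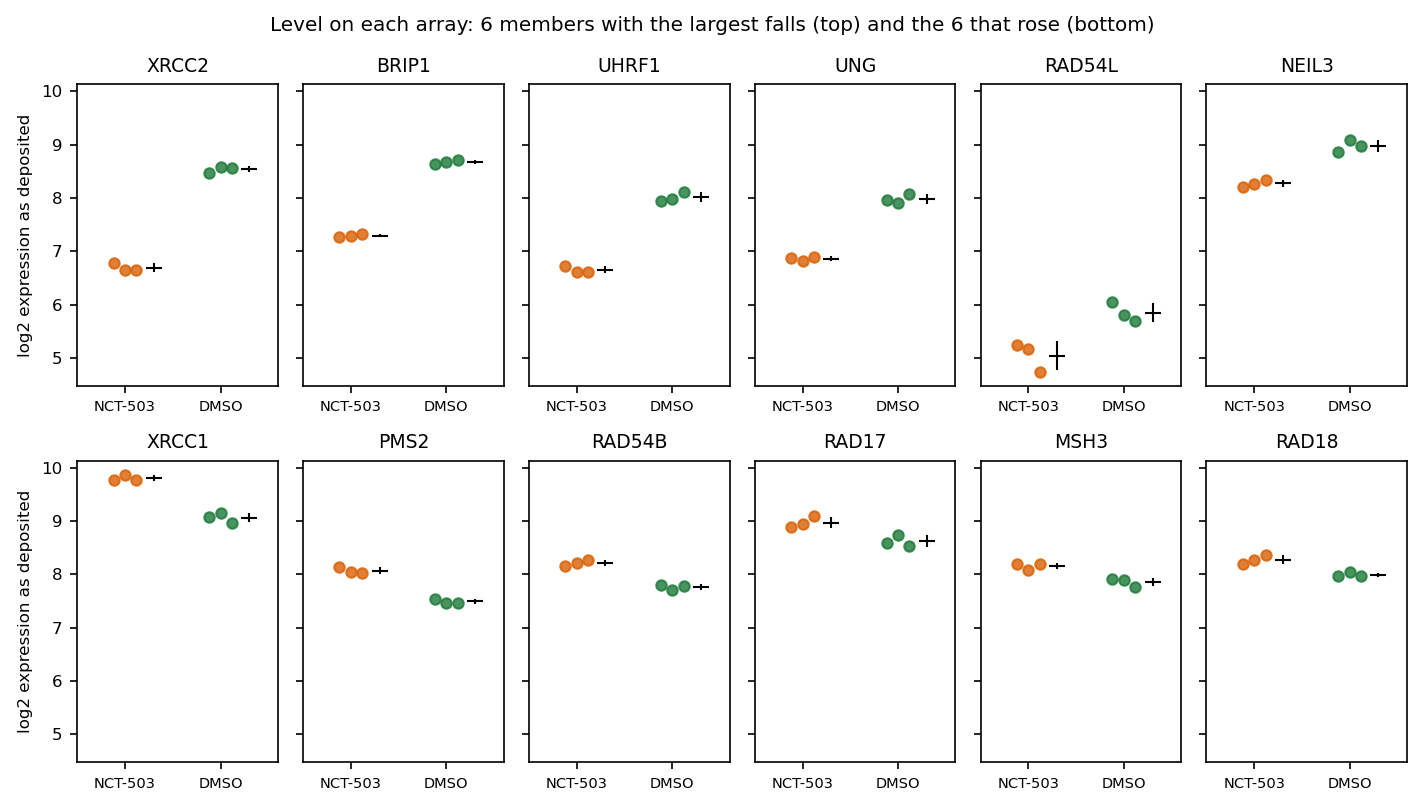
Log2 expression as deposited on each array (points, NCT-503 left of DMSO in each panel; dashes and bars are mean ± SD, n = 3) for the 6 members with the largest falls in the top row and the 6 that rose in the bottom row. In all 12 genes the groups do not overlap, and the gap is widest for XRCC2, at 6.64 to 6.78 with NCT-503 against 8.47 to 8.59 with DMSO.

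BRIP1 encodes a helicase that joins a BRCA complex and is known for fork and crosslink repair. It was at 7.27, 7.28 and 7.32 in the NCT-503 arrays, against 8.64, 8.66 and 8.71 in the DMSO arrays. The replicates lay within 0.1 of each other in each group, and BRIP1 fell by 1.38 ± 0.07 (2.61-fold, adjusted p = 3.71e-05). PALB2, which bridges the BRCA proteins, fell by 0.42 ± 0.07 (adjusted p = 0.00462), to 6.99 ± 0.06 with NCT-503 against 7.41 ± 0.04 with DMSO. BARD1, a subunit of a BRCA ubiquitin ligase, had a change of -0.09 (-0.27 to 0.10) and did not pass.

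EXO1 resects break ends and also removes the mismatched strand in mismatch repair. It was at 8.13, 8.11 and 8.18 with NCT-503, against 8.84, 8.78 and 8.72 with DMSO, and fell by 0.64 ± 0.07 (adjusted p = 0.0007). Every NCT-503 array was below every DMSO array. The MRN complex, which detects ends and starts resection, did not pass in any of its 3 genes. MRE11 had a change of -0.23 (-0.41 to -0.05, adjusted p = 0.0539), with groups that did not overlap, RAD50 of 0.12 (-0.06 to 0.29) and NBN of 0.03 (-0.14 to 0.19). MRE11 was called lower in 4 of 17 alternatives, namely with trend and robust moderation (0.0112), without moderation (0.0377) and among genes above the 25th (0.0311) or 50th (0.0138) percentile of level.

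At the top of the checkpoint, ATR is the kinase that responds to single-stranded DNA at stalled forks. It was at 7.40, 7.38 and 7.51 in the NCT-503 arrays, against 7.74, 7.77 and 7.72 in the DMSO arrays, and fell by 0.31 ± 0.07 (adjusted p = 0.0154). TOPBP1, which activates ATR, fell by 0.30 ± 0.08 (adjusted p = 0.0269), and ATRIP, the partner that carries ATR to DNA, had a change of -0.12 (-0.36 to 0.11). RAD17, the loader of the checkpoint clamp, rose by 0.35 ± 0.10 (adjusted p = 0.0257), with 8.89, 8.94 and 9.10 with NCT-503 against 8.59, 8.74 and 8.53 with DMSO. The clamp subunits RAD1 (0.05) and RAD9A (-0.24) did not pass, and HUS1, the third subunit, rose by 0.52 ± 0.07 (adjusted p = 0.00137). All these falls and rises were under 1.5-fold.

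The 3 checkpoint calls among the members were close to the threshold. ATR did not pass when NCT-503 b (adjusted p = 0.055) or DMSO b (0.05) was left out. TOPBP1 did not pass when NCT-503 a (0.0571), NCT-503 b (0.0868), DMSO a (0.0852) or DMSO b (0.0795) was left out, nor after centring each array on its 75th percentile (0.0726). RAD17 did not pass when NCT-503 b (0.0548), NCT-503 c (0.0672), DMSO a (0.0784) or DMSO c (0.0852) was left out, nor without moderation (0.0609).

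The effector kinases CHEK1 and CHEK2 stop the cell cycle once the sensors are active, and neither passed. CHEK1 was at 8.23, 8.22 and 8.49 with NCT-503, against 8.15, 8.31 and 8.23 with DMSO. The groups overlapped, and the change was 0.08 with an interval of -0.15 to 0.32. CHEK2 was at 5.52, 5.11 and 5.64 with NCT-503, against 5.70, 5.77 and 5.73 with DMSO. Its groups did not overlap, NCT-503 b lay lowest, and the change of -0.31 (-0.64 to 0.01, adjusted p = 0.124) did not pass. The reference lists 6 CHEK2 pseudogenes, and whether its probes also bind those copies was not tested. Pseudogenes are also listed for UNG, RAD1, RAD17, MRE11, RAD51AP1, RAD52 and DCLRE1C, and the same was not tested for them. The break-site mediators MDC1, which binds the phosphorylated histone mark of breaks, and TP53BP1, which limits resection, had changes of -0.05 (-0.22 to 0.12) and -0.005 (-0.17 to 0.16). Their intervals leave room for changes of at most 0.22 on the log2 scale.

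Among genes that act on branched DNA, SLX4, a scaffold for nucleases, was at 5.47, 5.62 and 5.49 with NCT-503, against 6.01, 5.65 and 6.0 with DMSO. DMSO b lay close to the NCT-503 arrays, and SLX4 fell by 0.36 ± 0.12, at the threshold (adjusted p = 0.0492). SLX4 did not pass when NCT-503 a (0.121), NCT-503 b (0.0665), NCT-503 c (0.116), DMSO a (0.143) or DMSO c (0.142) was left out. Nor did it pass after centring each array on its median (0.0718) or 75th percentile (0.0971), after quantile normalization (0.144), without moderation (0.123) or with every row tested (0.0679). MUS81, a nuclease that cuts stalled forks, had a change of 0.07 (-0.12 to 0.26). EME1, its partner, had 2 rows that differed. The row used here had a change of -0.13 (-0.41 to 0.14), and the row of lower level had a change of -0.38 ± 0.08 (adjusted p = 0.0119 in the fit of every row). With the mean of both rows EME1 was called lower (adjusted p = 0.0379). The RecQ helicases RECQL (0.26, adjusted p = 0.0723) and RECQL4 (-0.06) did not pass. RECQL was called higher in 5 of 17 alternatives, namely with trend and robust moderation (0.0126), after centring each array on its median (0.0452) or 75th percentile (0.0413), and among genes above the 25th (0.0469) or 50th (0.0245) percentile of level. The direction of RECQL4 turned in other scalings.

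UHRF1 reads half-methylated DNA behind the fork and is also known as a sensor of crosslinks. It was at 6.72, 6.61 and 6.62 in the NCT-503 arrays, against 7.94, 7.97 and 8.11 in the DMSO arrays, and fell by 1.36 ± 0.08 (2.56-fold, adjusted p = 6.71e-05). The groups were more than 1 log2 unit apart. USP1, which removes ubiquitin from PCNA and from the crosslink repair clamp, fell by 0.63 ± 0.09 (adjusted p = 0.00165), to 8.19 ± 0.12 against 8.83 ± 0.07 with DMSO. WDR48, the activating partner of USP1, rose by 0.62 ± 0.10 (adjusted p = 0.00298). RAD18, the ligase that puts ubiquitin on PCNA at stalled forks, rose by 0.29 ± 0.08 (adjusted p = 0.0257), and its ubiquitin-conjugating partner UBE2A by 0.57 ± 0.09 (adjusted p = 0.0029). PCNA itself, the substrate, fell by 2.04 ± 0.09. RAD18 did not pass when NCT-503 b (0.0655), NCT-503 c (0.0632), DMSO a (0.0795) or DMSO c (0.0795) was left out.

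The SNM1 nucleases digest DNA past a crosslink. DCLRE1B, which also trims telomere ends, was at 6.50, 6.47 and 6.25 with NCT-503, against 7.03, 7.04 and 7.11 with DMSO, and fell by 0.66 ± 0.09 (adjusted p = 0.00162). Its groups did not overlap. DCLRE1A had a change of -0.29 (-0.54 to -0.04, adjusted p = 0.0757) and did not pass. It was called lower without DMSO a (0.0403) and among genes above the 50th percentile of level (0.0275). In end joining, DCLRE1C, the nuclease Artemis that opens hairpin ends, had a change of -0.36 with the widest interval of all members (-0.80 to 0.08). XRCC4, the partner of the joining ligase, had a change of -0.14 (-0.44 to 0.15). XRCC5 and XRCC6, the Ku subunits that hold the ends, had changes of -0.13 and -0.06 and did not pass.

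Mismatch repair corrects replication errors, and its recognition proteins MSH6 and MSH3 compete for the same partner. MSH6, which recognises base mismatches, was at 6.64, 6.73 and 6.80 with NCT-503, against 7.36, 7.25 and 7.43 with DMSO, and fell by 0.62 ± 0.08 (adjusted p = 0.00147). MSH3, which recognises larger loops, rose by 0.30 ± 0.08 (adjusted p = 0.0259), with 8.19, 8.09 and 8.19 with NCT-503 against 7.92, 7.89 and 7.77 with DMSO. The MSH6 minus MSH3 difference within arrays changed by -0.92 ± 0.11 (SE) with NCT-503. MSH3 did not pass when NCT-503 a (0.0711), NCT-503 c (0.0632), DMSO b (0.0557) or DMSO c (0.0885) was left out, and MSH6 passed in all of these.

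PMS2 encodes a subunit of the MutL endonuclease that nicks the strand to be repaired. Its row was at 8.14, 8.05 and 8.03 with NCT-503, against 7.54, 7.47 and 7.47 with DMSO, a rise of 0.58 ± 0.07 (1.49-fold, adjusted p = 0.00114). The reference lists 15 PMS2 pseudogenes, 7 of which have a row on the array, and near-identical copies may share probes with PMS2. Of those 7 rows, 4 fell, none rose and 3 did not pass. PMS2P9 fell by 1.06 ± 0.12 (adjusted p = 0.000682) and PMS2CL by 0.61 ± 0.11 (adjusted p = 0.00478). PMS2P2 and PMS2P5 hold identical values on all 6 arrays and are the same measurement, and fell by 0.28 ± 0.07 (adjusted p = 0.0179). PMS2P4 had a change of 0.22, PMS2P1 of -0.08 and PMS2P3 of -0.31, without passing. These rows were looked up after the PMS2 value was seen, and how far the PMS2 row reports PMS2 alone was not tested.

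**Figure D4:**
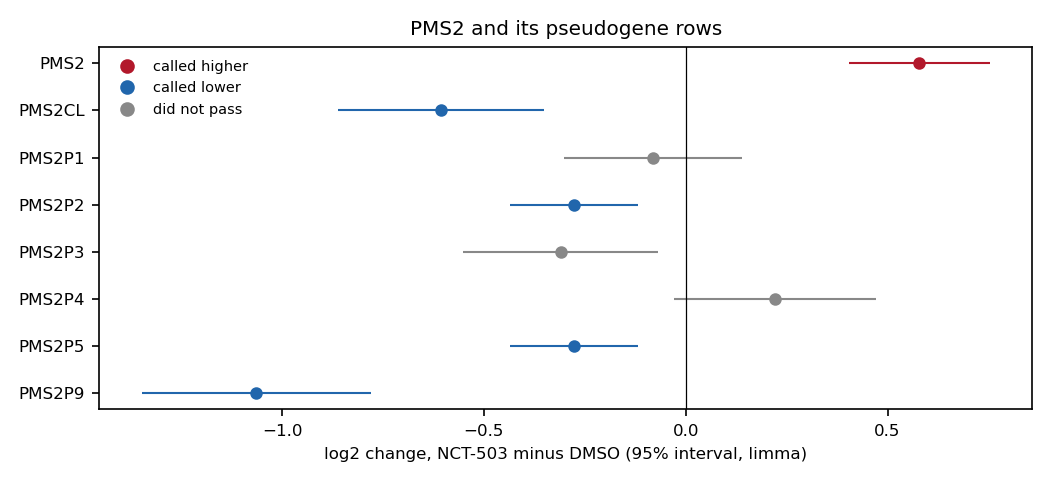
Log2 change, NCT-503 minus DMSO, of PMS2 and the 7 PMS2 pseudogenes with a row; points are limma's estimates and bars their 95% intervals, red for called higher, blue for called lower and grey for not passed. PMS2 lies at 0.58, and the called pseudogene rows lie between -1.06 and -0.28.

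Base excision repair starts with glycosylases that clip out altered bases, and the 3 glycosylases among the members fell while the scaffold XRCC1 rose. UNG, which removes uracil from new DNA, was at 6.86, 6.82 and 6.90 in the NCT-503 arrays, against 7.97, 7.90 and 8.07 in the DMSO arrays. The groups lay far apart, and UNG fell by 1.12 ± 0.08 (2.17-fold, adjusted p = 0.000109). NEIL3, a glycosylase of proliferating cells that also unhooks crosslinks, fell by 0.70 ± 0.09 (adjusted p = 0.0010), to 8.27 ± 0.06 against 8.97 ± 0.11 with DMSO. OGG1, which removes oxidised guanine, fell by 0.34 ± 0.09 (adjusted p = 0.0226), to 4.98 ± 0.13 against 5.33 ± 0.06 with DMSO. OGG1 did not pass when NCT-503 b (0.0618), NCT-503 c (0.057), DMSO a (0.0619) or DMSO b (0.0705) was left out.

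XRCC1 gathers the ligase and polymerase that seal the gap left by excision. It was at 9.77, 9.87 and 9.77 with NCT-503, against 9.08, 9.14 and 8.97 with DMSO, a rise of 0.74 ± 0.08 (1.67-fold, adjusted p = 0.000595). Every NCT-503 array was above every DMSO array by at least 0.6. APEX1, the endonuclease that cuts at the empty site, had a change of 0.11 (-0.06 to 0.27) and did not pass. Its groups did not overlap in the deposited values, its change was -0.03 after quantile normalization, and it was called higher with trend and robust moderation (adjusted p = 0.0377).

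The other genes of these pathways were taken from 8 lists that leave out the members. Of 87 measured, 34 fell (39.1%, against 17.1% of all genes tested) and 14 rose (16.1%, against 16.4%), with a median change of -0.14. The 14 rises became 9 without DMSO a or without DMSO c. In the fit of genes above the median level, 35 of 75 were called lower and 16 higher, against 32.2% and 29.1% of the genes in that fit. These lists, too, were chosen with earlier results of these data known. Of 16 other checkpoint genes, 8 fell and 2 rose. CLSPN, the adaptor between ATR and CHEK1, fell by 1.33 ± 0.08 (adjusted p = 4.91e-05), the phosphatase CDC25A by 1.14 ± 0.09 and the second ATR activator ETAA1 by 1.11 ± 0.11. Of 29 other recombination and resection genes, 14 fell and 5 rose. GEN1, which cuts Holliday junctions, fell by 2.00 ± 0.08 (adjusted p = 1.2e-05), MCM8, a helicase of recombination, fell by 1.31 ± 0.08, and the ubiquitin ligase RFWD3 had a change of -1.25 ± 0.07 (adjusted p = 4.44e-05). MAD2L2, which restrains resection and serves translesion synthesis, had the largest rise of that list, 1.00 ± 0.08 (adjusted p = 0.000182).

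Other lists were smaller or mixed. Of 15 other base excision and single-strand break genes 5 fell, led by the glycosylase TDG (-0.71), TDP1 (-0.66), which frees trapped topoisomerase, the poly(ADP-ribose) eraser PARG (-0.59) and the glycosylase MBD4 (-0.57). The glycosylases MPG (0.28) and NEIL1 (0.42, at the threshold) rose, and the glycosylases SMUG1 (-0.21), MUTYH (0.13), NTHL1 (0.13) and NEIL2 (0.38) did not pass. Of 3 other mismatch repair genes PCNA, which is also counted among the S phase genes below, and MLH3 (-0.999) fell. Of 7 other Fanconi anaemia genes, UBE2T, which feeds ubiquitin to the crosslink clamp, fell (-0.86) and WDR48 rose. Of 9 translesion and direct reversal genes 4 fell, led by UBE2N (-0.50), and UBE2A rose, while the list's median change was 0.07. Of 5 other nucleotide excision genes none fell and 3 rose, XAB2 (0.74), CDK7 (0.38) and RAD23B (0.25), and of 3 other end joining genes none passed.

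Genes of S phase and mitosis, which mark dividing cells, fell in the same samples. Of 24 measured S phase genes 21 fell and 1 rose, with a median change of -0.99 and a summed level of 11.74 to 11.85 with NCT-503 against 12.69 to 12.73 with DMSO. Of 22 mitosis genes 14 fell and 3 rose, with a median change of -0.46, and MKI67 fell by 1.17 ± 0.07 (adjusted p = 7.13e-05). The part of these falls in the changes of the repair genes was not tested. Of 24 listed p53 target genes, which respond to damage signalling where p53 is active, 12 were measured. Of these 12, 5 rose (41.7%, against 16.4% of all genes tested) and 4 fell (33.3%, against 17.1%), with a median change of 0.15. The largest changes among them were those of TP53INP1 (-1.09), TIGAR (-1.05), AEN (-0.84) and PLK3 (0.78). SESN2 (0.67), PMAIP1 (0.65), CCNG1 (0.63) and BBC3 (0.53) also rose, and RRM2B (-0.37) also fell.

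**Figure D5:**
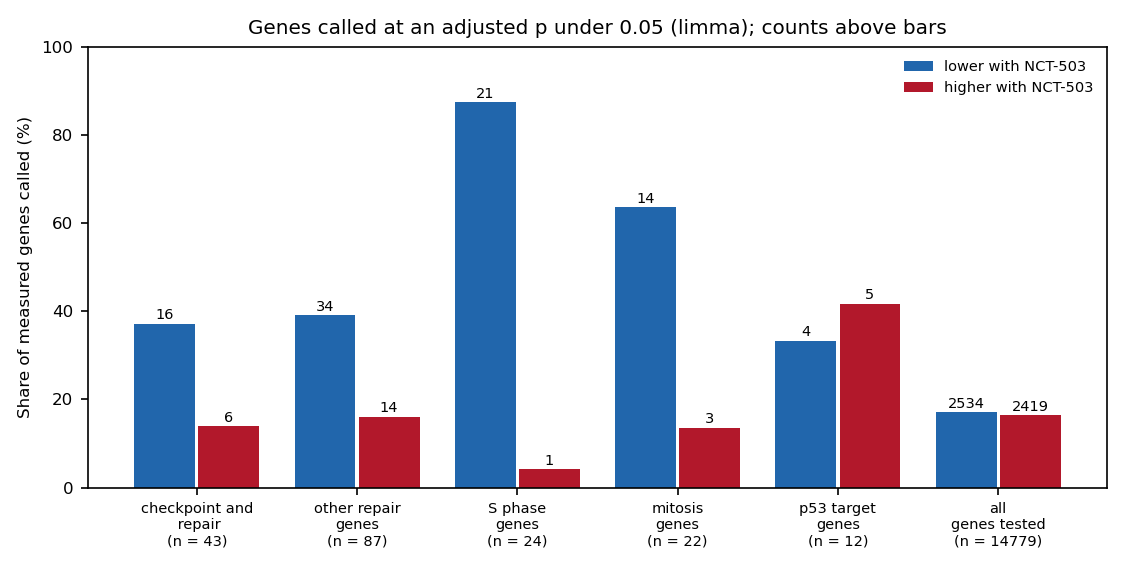
Share of measured genes, in percent, called lower (blue) and called higher (red) with NCT-503 at an adjusted p under 0.05, for the 43 checkpoint and repair members, the 87 other repair genes, 3 further lists and all 14779 genes tested; counts stand above the bars. In the share called lower, the members (16 lower, 6 higher) lie between the S phase genes (21 lower, 1 higher) and all genes tested (2534 lower, 2419 higher).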

How the data were processed

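RNA was measured in 6 BE(2)-C samples, 3 per group. The deposited table of the authors was taken as log2 values (0.578 to 13.6). Partek is the tool that the submitters' processing notes name; version, background correction and normalization stay not given in the sources used here. Scanner background was not used, so folds of dim genes may be understated, and the number of arrays limits the precision.

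Of 31135 rows, 15098 had 1 gene symbol, matched by Entrez identifier to the GRCh38.p14 reference table, and 256 genes had several rows. All 14779 genes entered one two-group model (limma 3.58.1, R 4.3.3, eBayes, no covariates), and two-sided p-values were adjusted by Benjamini-Hochberg. The steps were tested on simulated data. The simulation had independent noise and far fewer changed genes than were called here, so it cannot check the calls in these data. Separate cultures are not stated in the labels, so the p-values reflect only how these samples vary, which may be technical.

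The members and lists were chosen with earlier results of these data known. Values on every array are given for members changed at least 2-fold, for the largest call of each role, for rises of at least 0.5 and for ATR, CHEK1 and CHEK2 in any case; RAD54L, RAD54B and MSH3 were added after their values were seen. Of other lists, up to 4 called genes with the largest change are named. Further genes were picked with their values in view. They are partners or relatives of members, the genes behind a small count, or calls in the other direction, such as MAD2L2. Same-letter samples did not deviate together (correlations 0.003 to 0.037), so the letters were not treated as pairs. Alternatives were other moderation, array weights, a replicate block, 3 scalings, 2 filters on level, other row choices, leaving out each array and a stricter threshold. Sequences are from RefSeq.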

Additional observations from a re-analysis of the deposited data

How the results depend on the processing

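The 16 falls and 6 rises among the 43 members were 12 to 18 and 3 to 8 under every alternative run. Rises were 3 with the replicate block (14 falls) and 3 at an adjusted p under 0.01 (12 falls), and 3 to 5 when 1 array was left out. Under the block TOPBP1, RAD17, SLX4, RAD18 and MSH3 lost their calls. Same-letter samples did not deviate together, but the labels do not state whether the letters pair the samples. The median change of the members was -0.11 with arrays centred on the 75th percentile, and -0.23 to -0.12 when 1 array was left out. Rises among the 87 other repair genes were 8 at an adjusted p under 0.01 and 9 to 12 when 1 array was left out. With arrays centred on the 75th percentile, higher calls made up 60.4% of all calls (3345 higher, 2189 lower), against 48.8% as deposited, and 33.3% against 27.3% among members. The cause was not tested.

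No called member changed direction under any alternative, and XRCC2, BRIP1, UHRF1, UNG, RAD54L, NEIL3, DCLRE1B, EXO1, USP1, MSH6, RAD51AP1, PALB2, XRCC1, PMS2 and RAD54B kept their calls in all of them at an adjusted p under 0.05. Of the members that did not pass, 6 changed sign in at least 1 alternative. TP53BP1 was 0.037 with arrays centred on the median, 0.064 on the 75th percentile, 0.043 after quantile normalization and -0.019 to 0.016 when 1 array was left out. MDC1 was 0.019 on the 75th percentile. RECQL4 was 0.01 on the 75th percentile, 0.003 after quantile normalization and -0.135 to 0.027 when 1 array was left out. APEX1 was -0.031 after quantile normalization. RAD1 was -0.011 to 0.148 and CHEK1 -0.004 to 0.132 when 1 array was left out.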
